A study of Homo sapiens with 12 samples.

Results

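The RhoGAP and RhoGEF genes are the human genes whose symbols begin with ARHGAP or ARHGEF. Every row of the deposited count tables with such a symbol was taken, leaving out antisense symbols, which gave 62 genes, 36 ARHGAP and 26 ARHGEF, of 17992 genes in either table. Of these, 60 stood in the siMAPK14 table of 17598 genes and 62 in the siMAPK8_9 table of 17146 genes. ARHGAP8 and ARHGAP36 had a row in the siMAPK8_9 table alone. The filter on low counts left 48 members for a test in siMAPK14 and 46 in siMAPK8_9.

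The cells were MIO-M1, a human cell line of Müller glia, the radial glial cells of the retina, with wild-type genotype per the labels. They were collected on day 3 of siRNA treatment in 4 groups of 3 libraries. In siMAPK14 the small interfering RNA was directed at MAPK14, the gene of the kinase p38-alpha, and its reference was a control siRNA run beside it. In siMAPK8_9 the siRNAs were directed at MAPK8 and MAPK9, which code for JNK1 and JNK2, and the reference was a separate control siRNA set. The batch labels, written as dates, differ between the 2 experiments, so knockdown and batch cannot be told apart between experiments, while each knockdown shares its batch label with its own controls. Separate cultures are not stated for the replicates, so the spread that p-values rest on may be technical. All 12 libraries come from 1 cell line.

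The GTPases RHOA, RAC1, CDC42 and their relatives are molecular switches that shape the actin cytoskeleton. RhoGEFs (guanine nucleotide exchange factors) switch them on by exchanging GDP for GTP, and RhoGAPs (GTPase-activating proteins) switch them off by speeding up GTP hydrolysis. In glia, active RHOA acts through the ROCK kinases on contractility, and RAC1 and CDC42 drive protrusions, so the balance of both families bears on cell shape and migration. Many of these proteins are large scaffolds with long transcripts.

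The targeted transcripts were reduced. MAPK14 stood at 43.6% of its control level in siMAPK14, and MAPK8 and MAPK9 stood at 36.1% and 35.9% of theirs in siMAPK8_9. The knockdown libraries were shallower than the controls, with 14516406 to 19463837 counts in siMAPK14 and 9246294 to 20136463 in siMAPK8_9, against 31040067 to 31510571 in the controls. Mitochondrially encoded genes took 32.1% to 45.0% of counts in siMAPK14 and 8.93% to 36.9% in siMAPK8_9, against 1.56% to 2.03% in the controls. Replicate 2 of siMAPK8_9 stands apart: it had the 8.93% share, and it alone held KRT14 at 353 CPM and KRT5 at 208 CPM (counts scaled to the library size with TMM), with at most 0.65 CPM in each other library. Of 18 Müller glia markers, 16 reached a mean of 1 CPM in each group, VIM and GLUL among them. RLBP1 had no count in the control libraries, and AQP4 was not among the genes counted and so has no value here. Because RNA was measured in bulk, fewer cells of a kind and less RNA per cell cannot be told apart.

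Promoter windows of 300 bases, 250 before to 50 after an annotated start (RefSeq, GRCh38.p14), were available for 48 of the 62 genes, as 95 windows. The genes below recur in the results. With all libraries and TMM scaling, ARHGEF2 and ARHGAP24 were called lower in siMAPK14 and higher in siMAPK8_9. ARHGEF10L, ARHGAP29 and ARHGEF12 were called lower in both. With the length trend removed, as described below, ARHGEF2, ARHGAP24 and ARHGEF12 were not called in siMAPK14 and ARHGEF10L was not called in siMAPK8_9. Both ARHGAP24 calls and the siMAPK8_9 call of ARHGEF10L also ended when any 1 control library was left out. Sequences run 5′ to 3′ on the strand of the gene, and capitals mark a match to a motif searched on both strands. For genes with several windows 1 is shown, of 4 for ARHGEF2, 2 for ARHGAP24, 7 for ARHGEF10L, 2 for ARHGAP29 and 2 for ARHGEF12. Window 1 is shown for ARHGEF2, ARHGAP29 and ARHGEF12, and window 2 for ARHGAP24 and ARHGEF10L. The ARHGEF10L window was picked because it holds a match to the AP-1 motif described below, and the ARHGAP24 window shown holds a TEAD match. Counts per gene do not tell which start was used.
ARHGEF2 promoter, chr1:155979568-155979867, minus strand: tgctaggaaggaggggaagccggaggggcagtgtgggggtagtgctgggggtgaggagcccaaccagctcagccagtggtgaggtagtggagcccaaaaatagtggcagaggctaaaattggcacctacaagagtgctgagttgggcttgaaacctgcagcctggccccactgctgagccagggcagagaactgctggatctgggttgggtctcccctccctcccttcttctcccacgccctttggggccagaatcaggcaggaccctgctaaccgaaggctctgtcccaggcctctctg
ARHGAP24 promoter, chr4:85827687-85827986, plus strand: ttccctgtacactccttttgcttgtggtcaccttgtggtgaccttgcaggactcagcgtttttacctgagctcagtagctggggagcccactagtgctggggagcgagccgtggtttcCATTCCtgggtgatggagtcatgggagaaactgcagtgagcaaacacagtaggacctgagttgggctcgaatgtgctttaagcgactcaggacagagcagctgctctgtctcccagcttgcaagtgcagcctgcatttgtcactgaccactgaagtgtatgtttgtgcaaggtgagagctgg
ARHGEF10L promoter, chr1:17519947-17520246, plus strand: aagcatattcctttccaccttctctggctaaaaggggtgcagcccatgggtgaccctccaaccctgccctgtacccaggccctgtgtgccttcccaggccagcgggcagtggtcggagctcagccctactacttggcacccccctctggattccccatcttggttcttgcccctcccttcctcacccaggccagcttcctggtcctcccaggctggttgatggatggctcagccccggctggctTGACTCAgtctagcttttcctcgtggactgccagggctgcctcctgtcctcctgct
ARHGAP29 promoter, chr1:94247697-94247996, minus strand: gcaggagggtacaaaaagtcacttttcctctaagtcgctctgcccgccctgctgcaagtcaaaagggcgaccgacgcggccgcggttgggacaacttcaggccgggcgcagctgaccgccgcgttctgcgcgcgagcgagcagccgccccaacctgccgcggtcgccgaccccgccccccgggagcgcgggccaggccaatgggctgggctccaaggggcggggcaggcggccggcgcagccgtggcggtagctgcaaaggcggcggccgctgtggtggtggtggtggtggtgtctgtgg
ARHGEF12 promoter, chr11:120336163-120336462, plus strand: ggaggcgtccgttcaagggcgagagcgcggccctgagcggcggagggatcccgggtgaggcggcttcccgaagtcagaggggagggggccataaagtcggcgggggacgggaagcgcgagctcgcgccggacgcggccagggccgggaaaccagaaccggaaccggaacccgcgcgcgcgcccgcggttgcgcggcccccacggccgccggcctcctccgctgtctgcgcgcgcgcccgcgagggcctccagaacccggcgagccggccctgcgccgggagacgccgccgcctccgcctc

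The motifs were TGANTCA, bound by AP-1 factors such as JUN, a substrate of the JNK kinases, TGACGTCA, the CRE bound by CREB and ATF factors, GGAATG, bound by TEAD factors, and TTTGAA, the core of the cell-cycle CHR element. AP-1 letters stood in 1 of the 95 member windows, the window of ARHGEF10L shown above (TGACTCA), and in 7.71% of all 35116 promoter windows. CRE letters stood in 0 of the 95 windows and in 1.85% of all windows. TEAD letters stood in 6 of the 95 windows (6.32%), which belong to ARHGAP21, ARHGAP22, ARHGAP24, ARHGAP27, ARHGAP45 and ARHGEF28, and in 14.03% of all windows. The ARHGAP24 window holds them as CATTCC, their reverse complement. CHR letters stood in 12 member windows (12.6%), among them those of ARHGAP19, ARHGAP11B and ARHGEF6, and in 15.2% of all windows. The promoters of ARHGAP29 and ARHGEF12 are rich in CpG, with 35 and 51 CpG dinucleotides and 72.0% and 78.3% G and C, while that of ARHGEF2 shown has 3 CpG dinucleotides. The median over the member windows was 63.3% G and C, and over all windows 58.7%. The windows of ARHGEF2, ARHGAP29 and ARHGEF12 shown hold none of the 4 motifs, and no match shown overlaps another.

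Levels can be compared between genes only per length, so CPM were divided by the effective transcript length, the length that fragments can start in (12-library scaling, mean ± SD, n = 3). ARHGEF2, which codes for GEF-H1, a microtubule-bound activator of RHOA, was the highest member per kilobase in the controls of siMAPK14. It had 42.3 ± 3.03 CPM per kb in siMAPK14, 42.6 ± 11.2 in siMAPK8_9, 54.7 ± 3.18 in the controls of siMAPK14 and 17.7 ± 0.346 in the controls of siMAPK8_9. ARHGAP11A, a RhoGAP of dividing cells that acts on RHOA, ranked next and was highest in the other control set, with 22.5 ± 5.89, 26.3 ± 10.8, 25.0 ± 0.753 and 38.2 ± 0.770 CPM per kb in the same order of groups. ARHGEF1, ARHGAP29 and ARHGAP1 followed in the controls of siMAPK14 at 23.4 ± 0.527, 21.8 ± 0.796 and 21.6 ± 0.268 CPM per kb, of which ARHGAP29 and ARHGAP1 differed by less than the SD. ARHGAP22, which acts on RAC1, came sixth with 14.7 ± 1.77 CPM per kb there and 7.92 ± 0.439 in the other control set. The 2 control sets differed by at least 2-fold for 2 of 36 members with at least 5 CPM, ARHGEF2 and ARHGAP42, and for 5.52% of all 10420 such genes.

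Of the 48 members tested in siMAPK14, 2 rose and 27 fell at an adjusted p under 0.05 (edgeR's quasi-likelihood test, adjusted over 13183 genes). The background was large: 59.9% of all genes tested were called, 29.4% higher and 30.5% lower. The median log2 fold change of the members was -0.56, beside -0.02 over all genes. Of 28 ARHGAP genes 1 rose and 15 fell, and of 20 ARHGEF genes 1 rose and 12 fell. Of the 29, 22 passed in all 6 refits that left out 1 library, all of them lower. Over all genes, the 7899 calls became 6410 to 6511 when 1 control library was left out. Knockdown and control libraries did not overlap for 33 of the 48 members, a share close to the 68.6% of all genes.

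Of the 46 members tested in siMAPK8_9, 3 rose and 22 fell, beside a background of 52.9% of 13124 genes called, 26.8% higher and 26.1% lower. The median log2 fold change of the members was -0.78, beside -0.05 over all genes. Of 27 ARHGAP genes 2 rose and 11 fell, and of 19 ARHGEF genes 1 rose and 11 fell. Without replicate 2, the library that stands apart, 5 members rose and 30 fell of 49 tested, beside 71.1% of all genes called, 33.6% higher and 37.5% lower. Of the 25 calls, 17 passed in all 6 refits that left out 1 library, with ARHGEF2 higher and 16 lower. Over all genes, the 6938 calls became 4509 to 4560 when 1 control library was left out. The groups did not overlap for 35 of the 46 members, beside 67.9% of all genes.

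Both counts rest on TMM scaling, which sets the typical gene near 0. With libraries scaled by their total counts instead, the median of all genes moved to -0.79 in siMAPK14 and -0.71 in siMAPK8_9, and that of the RhoGAP and RhoGEF genes to -1.32 and -1.39. The members then gave 40 lower and 0 higher calls in siMAPK14, and 24 lower and 0 higher in siMAPK8_9. Of all genes 68.9% were then called in siMAPK14, 5.53% higher and 63.4% lower, and 46.0% in siMAPK8_9, 8.55% higher and 37.4% lower. The totals include the mitochondrially encoded genes, whose share was higher in every knockdown library than in the controls. The part of that share in the total-count values was not tested. Directions below are relative to the typical gene under TMM.

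The 3 RhoGEFs with an RGS domain, which couple receptors of the G12 and G13 proteins to RHOA, fell in both knockdowns. ARHGEF1 (p115-RhoGEF) had 43.8, 34.3 and 43.5 CPM in siMAPK14, against 66.0, 68.2 and 65.3 CPM in its controls (log2 fold change -0.71 ± 0.098 (SE), adjusted p = 2.85e-04). Its siMAPK8_9 libraries had 28.1, 38.2 and 27.9 CPM, against 63.4, 64.0 and 66.1 CPM in the controls (log2 fold change -1.03 ± 0.15 (SE), adjusted p = 0.00220). Every knockdown library of ARHGEF1 lay below every control library in both experiments. ARHGEF11 (PDZ-RhoGEF) had 21.7, 18.5 and 16.9 CPM in siMAPK14, against 29.6, 28.7 and 25.8 CPM in its controls (log2 fold change -0.56 ± 0.12 (SE), adjusted p = 0.00315). In siMAPK8_9 its values were 12.6, 15.5 and 10.7 CPM, against 44.6, 43.8 and 41.0 CPM in the controls (log2 fold change -1.72 ± 0.16 (SE), adjusted p = 6.33e-04). Again the groups did not overlap, and the siMAPK8_9 difference was the larger. ARHGEF12 (LARG) had 43.6, 40.9 and 35.3 CPM in siMAPK14, against 77.2, 72.8 and 71.7 CPM in the controls (log2 fold change -0.89 ± 0.091 (SE), adjusted p = 4.80e-05). It had 34.1, 44.6 and 19.5 CPM in siMAPK8_9, against 115, 111 and 109 CPM in the controls (log2 fold change -1.75 ± 0.27 (SE), adjusted p = 0.00269), so its replicate 2 was the highest and replicate 3 the lowest of the knockdown libraries.

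ARHGEF2, ARHGEF18 and ARHGEF28 form another group of RHOA activators, and they did not move together. ARHGEF2 had 164, 149.7 and 173 CPM in siMAPK14, against 192, 213 and 212 CPM in its controls (log2 fold change -0.34 ± 0.073 (SE), adjusted p = 0.00350). The values were 132, 218 and 157 CPM in siMAPK8_9, against 67.5, 69.9 and 70.2 CPM in the controls (log2 fold change 1.29 ± 0.19 (SE), adjusted p = 0.00224). The siMAPK8_9 libraries thus all lay above their controls, with the highest value in replicate 2, and without that library the log2 fold change was 1.07. With total counts the value in siMAPK8_9 was 0.68 and missed the threshold (adjusted p = 0.173). ARHGEF18 (p114RhoGEF), which acts at cell junctions, had 24.5, 28.0 and 26.8 CPM in siMAPK14, against 40.1, 42.6 and 37.9 CPM in the controls (log2 fold change -0.61 ± 0.091 (SE), adjusted p = 4.24e-04). It had 17.9, 20.8 and 17.4 CPM in siMAPK8_9, against 43.1, 44.4 and 45.0 CPM in the controls (log2 fold change -1.23 ± 0.12 (SE), adjusted p = 6.93e-04), and the groups did not overlap in either experiment. ARHGEF28 (p190RhoGEF) had 17.2 ± 1.89 CPM in siMAPK14 and 30.4 ± 0.962 CPM in its controls (SD, n = 3 each), and fell (log2 fold change -0.82 ± 0.11 (SE), adjusted p = 1.62e-04). In siMAPK8_9 it had 19.7 ± 2.00 CPM, against 24.1 ± 1.20 CPM in the controls, and did not pass the test (log2 fold change -0.29), though without replicate 1 it did, at -0.38 (adjusted p = 0.0465).

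ARHGEF10, ARHGEF10L and ARHGEF17, exchange factors for RHOA and its close relatives, all fell in both knockdowns. ARHGEF17 had 15.9, 12.6 and 15.6 CPM in siMAPK14, against 42.1, 37.0 and 33.4 CPM in the controls (log2 fold change -1.34 ± 0.13 (SE), adjusted p = 3.52e-05). In siMAPK8_9 it had 10.1, 23.7 and 16.1 CPM, against 37.1, 36.0 and 38.6 CPM in the controls (log2 fold change -1.13 ± 0.28 (SE), adjusted p = 0.0144). ARHGEF10L had 14.7, 12.8 and 18.2 CPM in siMAPK14, against 30.1, 33.3 and 31.0 CPM in the controls (log2 fold change -1.03 ± 0.13 (SE), adjusted p = 1.81e-04). These groups were well apart in siMAPK14, and the knockdown libraries of siMAPK8_9 were more spread. There ARHGEF10L had 12.9, 18.2 and 6.99 CPM, against 24.8, 23.7 and 26.0 CPM in the controls (log2 fold change -0.93 ± 0.31 (SE), adjusted p = 0.0399). That call ended without any 1 of the 3 control libraries or without siMAPK8_9 replicate 1 (highest adjusted p 0.105). ARHGEF10 had log2 fold changes of -0.80 in siMAPK14 and -1.09 in siMAPK8_9.

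The PIX proteins ARHGEF6 and ARHGEF7 activate RAC1 and CDC42 and bind PAK kinases. ARHGEF6 had 21.3, 21.9 and 19.5 CPM in siMAPK14, against 42.0, 40.6 and 41.1 CPM in the controls (log2 fold change -0.99 ± 0.086 (SE), adjusted p = 2.01e-05). Its siMAPK8_9 libraries had 28.8, 35.1 and 26.8 CPM, against 38.5, 36.4 and 36.0 CPM in the controls, where the test was not passed (log2 fold change -0.28, adjusted p = 0.124). Its siMAPK14 libraries lay well below the controls without overlap, and in siMAPK8_9 replicate 2 came close to the controls while replicates 1 and 3 lay lower. Without that replicate 2 the log2 fold change of ARHGEF6 in siMAPK8_9 was -0.40 (adjusted p = 0.00470), past the threshold. ARHGEF7 passed in neither with all libraries, with log2 fold changes of -0.34 ± 0.18 (SE) in siMAPK14 and -0.40 ± 0.21 (SE) in siMAPK8_9. It passed in siMAPK14 without siMAPK14 replicate 1, at -0.57 (adjusted p = 0.00998), and in siMAPK8_9 without siMAPK8_9 replicate 2, at -0.65 (adjusted p = 0.00177).

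Among the other RhoGEFs, ARHGEF26 (SGEF, an exchange factor for RHOG) and ARHGEF40 (Solo, which binds keratin filaments) fell in both knockdowns. ARHGEF26 had 5.81, 3.96 and 4.76 CPM in siMAPK14, against 10.1, 9.65 and 9.67 CPM in the controls (log2 fold change -1.01 ± 0.18 (SE), adjusted p = 0.00103). It had 6.00, 3.34 and 4.39 CPM in siMAPK8_9, against 14.5, 16.1 and 15.04 CPM in the controls (log2 fold change -1.77 ± 0.24 (SE), adjusted p = 0.00178). ARHGEF40 had 12.4, 7.11 and 8.23 CPM in siMAPK14, against 18.4, 18.0 and 17.8 CPM in the controls (log2 fold change -0.96 ± 0.19 (SE), adjusted p = 0.00210). No library of these genes crossed into the other group. In siMAPK8_9 ARHGEF40 had 7.76, 11.9 and 5.52 CPM, against 25.4, 23.7 and 24.8 CPM in the controls (log2 fold change -1.51 ± 0.26 (SE), adjusted p = 0.00404). ARHGEF37 fell in siMAPK8_9 (log2 fold change -1.12 ± 0.30 (SE), adjusted p = 0.0200), and this call ended when any 1 of the 3 control libraries was left out (highest adjusted p 0.0880). ARHGEF19, a RHOA activator of the ephexin group, rose in siMAPK14, with 3.11, 3.45 and 2.94 CPM, against 1.73, 1.69 and 2.18 CPM in the controls (log2 fold change 0.76 ± 0.28 (SE), adjusted p = 0.0408). This call too ended without any 1 of the 3 control libraries (highest adjusted p 0.177), and with total counts ARHGEF19 stood at -0.020. ARHGEF3, ARHGEF25 and ARHGEF39 passed in neither knockdown.

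**Figure D1:**
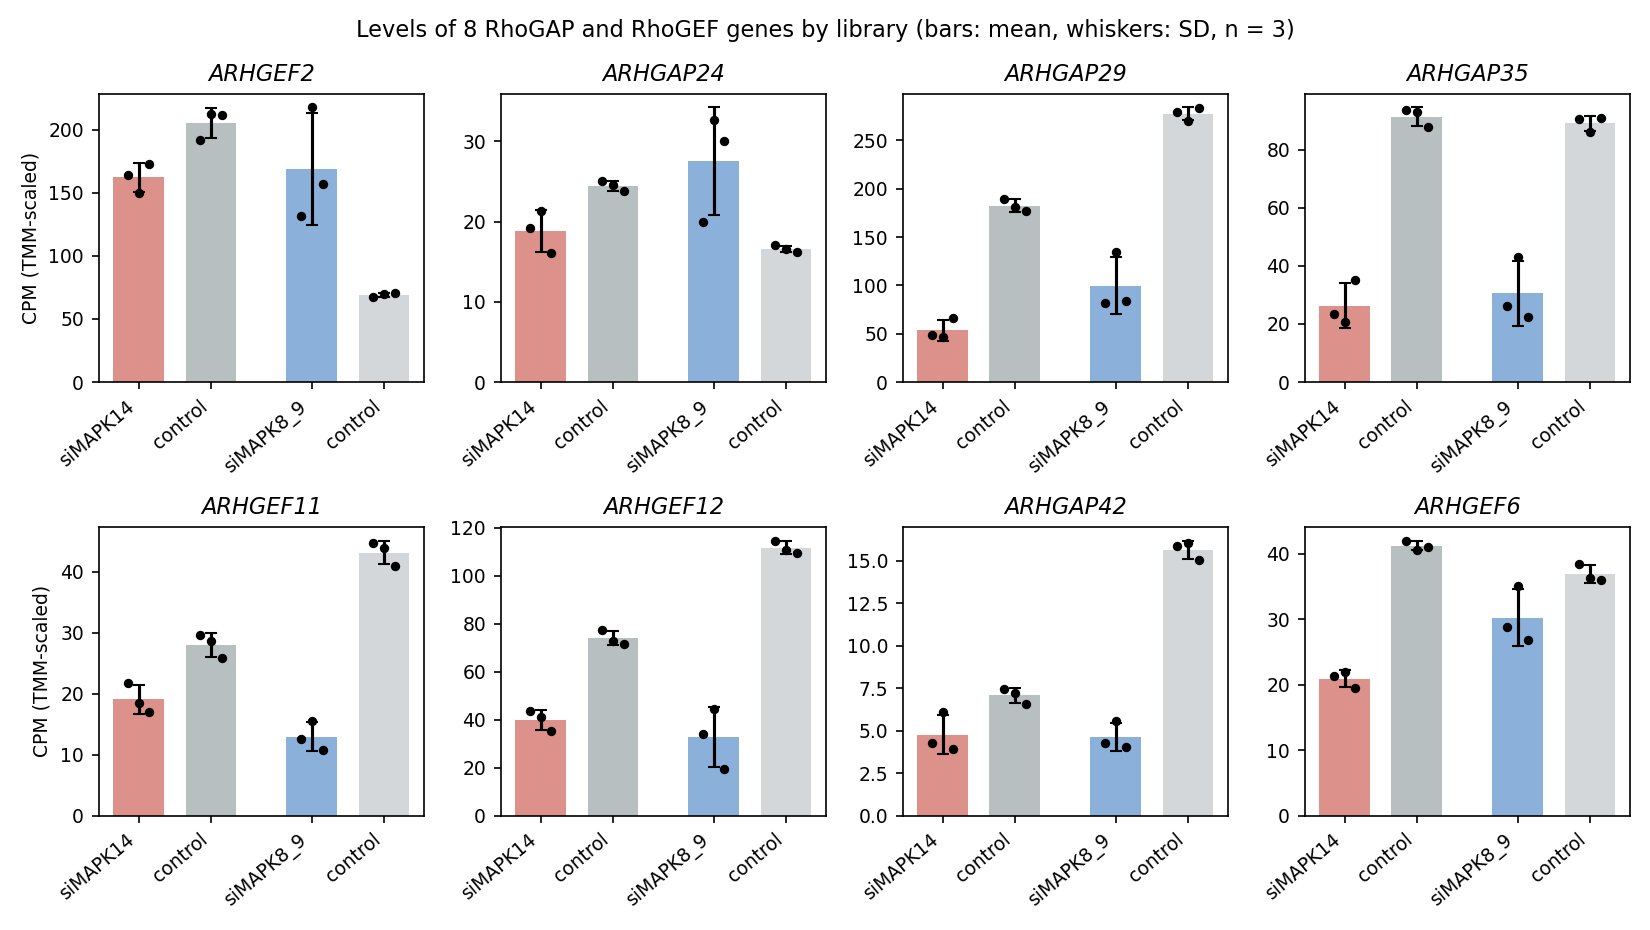
Levels of 8 members in each library, in CPM scaled by TMM within each experiment; bars are means and whiskers SDs of 3 libraries, each knockdown left of its own control. ARHGEF2 stands at 132, 218 and 157 CPM in siMAPK8_9, against 67.5, 69.9 and 70.2 CPM in the controls, and ARHGAP29 and ARHGAP35 lie below their controls in both experiments.

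Of the RhoGAPs, the largest decreases in siMAPK14 were those of ARHGAP35 and ARHGAP29. ARHGAP35 codes for p190A-RhoGAP, a main inactivator of RHOA. It had 23.3, 20.6 and 35.1 CPM in siMAPK14, against 93.6, 93.1 and 87.8 CPM in the controls (log2 fold change -1.77 ± 0.17 (SE), adjusted p = 3.10e-05). The values were 26.0, 43.1 and 22.4 CPM in siMAPK8_9, against 90.5, 86.1 and 90.9 CPM in the controls (log2 fold change -1.52 ± 0.24 (SE), adjusted p = 0.00283). The control levels of the 2 sets were close, and replicate 2 was the highest siMAPK8_9 library. Its paralog ARHGAP5 (p190B-RhoGAP) fell less in siMAPK14, with 46.5, 43.6 and 44.2 CPM, against 64.4, 68.7 and 67.0 CPM in the controls (log2 fold change -0.58 ± 0.070 (SE), adjusted p = 1.16e-04). In siMAPK8_9 ARHGAP5 had 47.7, 71.1 and 47.0 CPM, against 77.7, 73.0 and 71.7 CPM in the controls, and missed the threshold (log2 fold change -0.42, adjusted p = 0.0886). Without replicate 2, the one siMAPK8_9 library near the controls, ARHGAP5 passed at -0.64 (adjusted p = 1.52e-04).

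ARHGAP29 codes for another inactivator of RHOA, which is recruited to RAP1 effectors at cell junctions. It had 48.7, 46.1 and 66.0 CPM in siMAPK14, against 189.6, 181 and 177 CPM in the controls (log2 fold change -1.76 ± 0.12 (SE), adjusted p = 8.66e-06). It had 81.5, 134 and 83.7 CPM in siMAPK8_9, against 279, 270.5 and 284 CPM in the controls (log2 fold change -1.47 ± 0.21 (SE), adjusted p = 0.00202). The groups were far apart in both experiments, and replicate 2 was again the highest siMAPK8_9 library. ARHGAP18, which also acts on RHOA, had 11.0, 8.74 and 9.41 CPM in siMAPK14, against 25.1, 25.4 and 23.5 CPM in the controls (log2 fold change -1.34 ± 0.12 (SE), adjusted p = 2.46e-05). In siMAPK8_9 replicate 2 of ARHGAP18 lay within the range of the controls and the other libraries far below. It had 11.3, 30.4 and 9.91 CPM, against 32.8, 30.2 and 32.3 CPM in the controls (log2 fold change -0.84, adjusted p = 0.124). Without replicate 2 the log2 fold change was -1.57 with an adjusted p of 1.60e-05.

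ARHGAP31 (CdGAP) and ARHGAP33, relatives with activity on CDC42 and RAC1, fell in both knockdowns. ARHGAP31 had 21.4, 13.2 and 20.9 CPM in siMAPK14, against 33.0, 32.0 and 33.0 CPM in the controls (log2 fold change -0.81 ± 0.16 (SE), adjusted p = 0.00222). In siMAPK8_9 it had 13.5, 19.8 and 16.7 CPM, against 47.8, 50.2 and 49.2 CPM in the controls (log2 fold change -1.54 ± 0.16 (SE), adjusted p = 8.18e-04). ARHGAP33 had 2.49, 3.44 and 2.44 CPM in siMAPK8_9, against 8.61, 8.38 and 9.62 CPM in the controls (log2 fold change -1.63 ± 0.22 (SE), adjusted p = 0.00175). These 3 pairs of groups did not overlap. In siMAPK14 ARHGAP33 had 6.63, 1.63 and 3.65 CPM, against 9.26, 8.94 and 8.71 CPM in the controls (log2 fold change -1.16 ± 0.36 (SE), adjusted p = 0.0212), a call that ended without any 1 control library or without siMAPK14 replicate 3 (highest adjusted p 0.0693).

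The FilGAP group, which inactivates RAC1, held 2 of the 3 members that rose in siMAPK8_9. Its other member, ARHGAP22, was not called there (log2 fold change 0.32, adjusted p = 0.155). ARHGAP24 (FilGAP, bound to filamin) had 19.9, 32.6 and 30.1 CPM in siMAPK8_9, against 17.04, 16.6 and 16.2 CPM in the controls (log2 fold change 0.73 ± 0.20 (SE), adjusted p = 0.0191). In siMAPK14 it had 19.2, 21.3 and 16.1 CPM, against 25.1, 24.5 and 23.8 CPM in the controls (log2 fold change -0.39 ± 0.12 (SE), adjusted p = 0.0208). The groups did not overlap in either experiment, but both calls ended when any 1 of the 3 control libraries was left out, and that in siMAPK8_9 also without siMAPK8_9 replicate 3 (highest adjusted p 0.0758 in siMAPK8_9 and 0.0802 in siMAPK14). ARHGAP25, best known from leukocytes, had 5.27, 4.57 and 5.52 CPM in siMAPK8_9, against 2.98, 2.91 and 3.07 CPM in the controls (log2 fold change 0.77 ± 0.22 (SE), adjusted p = 0.0233), and lost its call without any 1 control library (highest adjusted p 0.122). With total counts ARHGAP24 was at 0.100 and ARHGAP25 at 0.083 in siMAPK8_9. In siMAPK14 ARHGAP25 was not called (log2 fold change 0.54, adjusted p = 0.0695), but passed without siMAPK14 replicate 3, at 0.70 (adjusted p = 0.0113). ARHGAP22 had 25.1 ± 1.64 CPM in siMAPK14 and 31.1 ± 3.73 CPM in its controls (SD, n = 3 each), with a fall that passed narrowly (log2 fold change -0.31 ± 0.11 (SE), adjusted p = 0.0439). The ARHGAP22 call ended without control replicate 2 or 3 and without siMAPK14 replicate 1 or 2 (highest adjusted p 0.166).

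Of the GRAF group, RhoGAPs with a membrane-binding BAR domain, ARHGAP42 (GRAF3, an inactivator of RHOA in smooth muscle) had 4.24, 5.56 and 4.06 CPM in siMAPK8_9, against 15.8, 16.0 and 15.02 CPM in the controls (log2 fold change -1.73 ± 0.18 (SE), adjusted p = 8.18e-04). In siMAPK14 it had 4.26, 6.10 and 3.94 CPM, against 7.43, 7.22 and 6.56 CPM in the controls (log2 fold change -0.59 ± 0.21 (SE), adjusted p = 0.0351). The knockdown levels lay close together in both experiments, and the controls of siMAPK8_9 stood higher than those of siMAPK14. The siMAPK14 call ended without any 1 of the 3 control libraries, without siMAPK14 replicate 1 and without siMAPK14 replicate 3 (highest adjusted p 0.131). ARHGAP10 and ARHGAP26 of the same group passed in neither knockdown.

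ARHGAP11A and ARHGAP19 act on RHOA during mitosis. ARHGAP19 had 8.18, 4.37 and 5.76 CPM in siMAPK14, against 15.02, 14.2 and 13.7 CPM in the controls (log2 fold change -1.22 ± 0.20 (SE), adjusted p = 8.66e-04). Its siMAPK8_9 libraries had 3.80, 9.84 and 9.75 CPM, against 13.5, 14.05 and 13.5 CPM in the controls (log2 fold change -0.79, adjusted p = 0.0833), and the gene passed without replicate 1, at -0.49 (adjusted p = 0.0235), or without replicate 2, at -1.03 (adjusted p = 0.0139). ARHGAP11A passed in neither with all libraries, with 103, 143 and 86.9 CPM in siMAPK14, against 125, 118 and 119.7 CPM in the controls. The values were 154, 71.7 and 177 CPM in siMAPK8_9, against 196, 190.1 and 189.5 CPM in the controls, with the lowest value in replicate 2. The log2 fold changes of ARHGAP11A were -0.13 in siMAPK14 and -0.52 in siMAPK8_9, and leaving out replicate 2 of the knockdown gave a call in each, at -0.37 (adjusted p = 0.00541) in siMAPK14 and -0.21 (adjusted p = 0.0183) in siMAPK8_9. ARHGAP11B, a partial human copy of ARHGAP11A, fell in siMAPK8_9, with 1.17, 1.27 and 0 CPM, against 4.23, 3.61 and 4.12 CPM in the controls (log2 fold change -2.13 ± 0.66 (SE), adjusted p = 0.0310), and lost the call without any 1 control library or without siMAPK8_9 replicate 1 (highest adjusted p 0.107). Reads of ARHGAP11A, ARHGAP11B and the readthrough gene ARHGAP11A-SCG5 share near-identical sequence, so their split is uncertain.

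ARHGAP1 (p50RhoGAP, which acts on CDC42) fell in both, with 49.8 ± 5.66 CPM in siMAPK14 and 65.0 ± 0.824 CPM in its controls (SD, n = 3 each), with a log2 fold change of -0.38 and an adjusted p of 0.00524 (edgeR). In siMAPK8_9 it had 48.4 ± 6.47 CPM, against 81.9 ± 0.798 CPM in the controls (log2 fold change -0.75). ARHGAP17 (RICH1, a CDC42 inactivator at tight junctions) had 17.9, 18.3 and 14.8 CPM in siMAPK8_9, against 28.4, 31.0 and 32.3 CPM in the controls (log2 fold change -0.84 ± 0.14 (SE), adjusted p = 0.00308). In siMAPK14 ARHGAP17 was near its control, with 19.7, 26.8 and 25.7 CPM, against 25.0, 23.9 and 23.5 CPM in the controls (log2 fold change -0.0036). ARHGAP21, which acts on CDC42 at the Golgi, fell in both, by 0.99 in siMAPK14 and 0.83 in siMAPK8_9 on the log2 scale, and its relative ARHGAP23 fell in siMAPK14, by 0.86. ARHGAP4, a RhoGAP of blood cells, rose in siMAPK14 at low levels, with 1.72, 1.02 and 2.76 CPM, against 0.611, 0.588 and 0.465 CPM in the controls (log2 fold change 1.75 ± 0.47 (SE), adjusted p = 0.0113). The ARHGAP4 call ended without any 1 of the 3 control libraries (highest adjusted p 0.0685).

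In addition, 4 RhoGAPs were called lower in 1 knockdown. In siMAPK14, ARHGAP32, which acts on RHOA, CDC42 and RAC1, fell (log2 fold change -0.55 ± 0.14 (SE), adjusted p = 0.00907) and was called in all 6 refits that left out 1 library. ARHGAP12 fell as well (log2 fold change -0.35 ± 0.10 (SE), adjusted p = 0.0174), but not without replicate 2 or replicate 3 of the controls (highest adjusted p = 0.0661). In siMAPK8_9, ARHGAP27 fell (log2 fold change -0.78 ± 0.22 (SE), adjusted p = 0.0236), and this call was lost without any 1 of the 3 control libraries or without replicate 1 of siMAPK8_9 (highest adjusted p = 0.0801). ARHGAP39 had 0.439, 2.45 and 0.812 CPM in siMAPK8_9, against 3.93, 4.00 and 4.07 CPM in the controls (log2 fold change -1.51 ± 0.53 (SE), adjusted p = 0.0483), and was called in 1 of the 6 refits, the one without replicate 2 of siMAPK8_9 (highest adjusted p = 0.123). ARHGAP6, ARHGAP45 and the readthrough gene ARHGAP11A-SCG5 were tested in both knockdowns and called in neither, and ARHGAP30 was tested in siMAPK14 alone, where its log2 fold change was -0.84 (adjusted p = 0.345). Some members missed the threshold with all libraries and passed when 1 knockdown library was left out. In siMAPK8_9 without replicate 2 these included ARHGAP23 at -1.60 (adjusted p = 1.12e-05), ARHGAP32 at -1.24 (adjusted p = 1.52e-04) and ARHGAP11A-SCG5 at 1.03 (adjusted p = 0.0105), where all libraries gave -0.997, -0.70 and 0.69. ARHGAP26 was at -0.55 (adjusted p = 0.0114) in siMAPK8_9 without replicate 3, beside -0.26 with all libraries, and at -0.99 (adjusted p = 8.06e-04) in siMAPK14 without replicate 1, beside -0.60. ARHGEF25 was at -0.94 (adjusted p = 0.00346) in siMAPK14 without replicate 1, beside -0.43 with all libraries, and ARHGAP45 at 0.89 (adjusted p = 0.0104) without replicate 2, beside 0.67. Over all genes, the 6938 calls in siMAPK8_9 became 9554 without siMAPK8_9 replicate 2 and 6807 without siMAPK8_9 replicate 3. The 7899 calls in siMAPK14 became 8107 without siMAPK14 replicate 1 and 8458 without siMAPK14 replicate 2.

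Transcript length moved with the fold changes. The tested members had a median effective length of 4.53 kb (range 1.27 to 9.29 kb), against 2.91 kb over all genes. In siMAPK14 the all-gene median log2 fold change was 0.72 in the shortest of 5 length classes of equal size and -0.57 in the longest, and in siMAPK8_9 it was 0.95 in the shortest and -0.78 in the longest. In the longest class, 13 of 15 members fell in siMAPK14, with a median of -0.86, and 62.1% of all genes of that class fell. In siMAPK8_9, 9 of 14 members of the longest class fell, with a median of -1.30, and 57.8% of all genes of that class fell. The median of the members in the longest class thus lay below the all-gene median of the class in both knockdowns. The part of length in the members' fold changes was not tested.

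**Figure D2:**
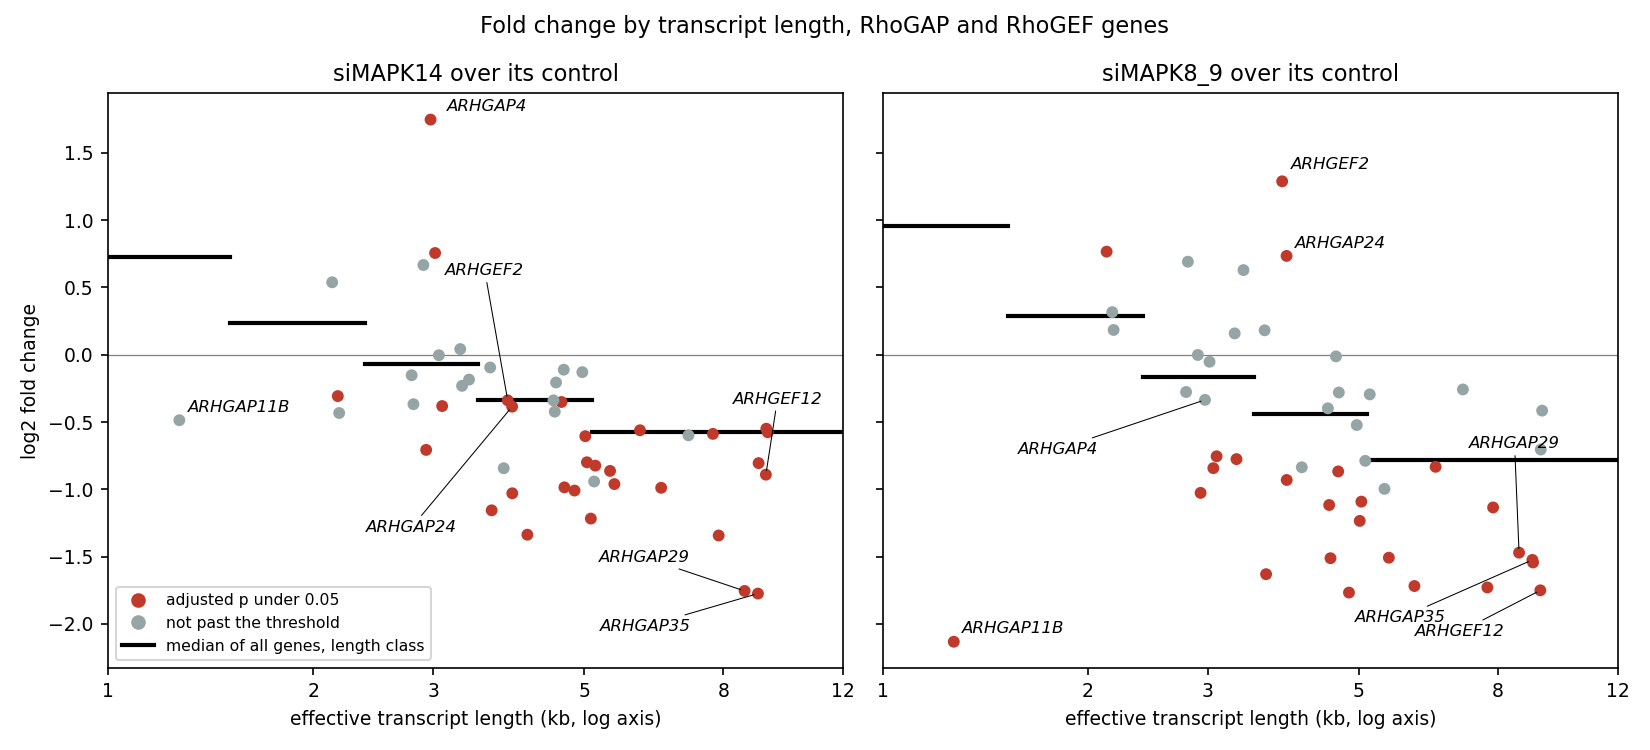
Log2 fold change of each tested member against its effective transcript length in kb on a log axis, for siMAPK14 and siMAPK8_9, with red points past an adjusted p of 0.05. Black lines give the median of all genes in each of 5 length classes, with 0.72 and 0.95 in the shortest class and -0.57 and -0.78 in the longest.

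When the trend of counts with length was removed within each library, 18 of 48 members were past the threshold in siMAPK14, 2 higher and 16 lower, beside 46.3% of all genes called, 23.4% higher and 22.9% lower. The member median was then -0.17. In siMAPK8_9, 20 of 46 were called, 4 higher and 16 lower, beside 37.9% of all genes, 19.1% higher and 18.7% lower, with a member median of -0.30. ARHGAP29 stayed lower, at -1.13 in siMAPK14 and -0.63 in siMAPK8_9 on the log2 scale. ARHGAP35 did so at -1.13 in siMAPK14 and -0.66 in siMAPK8_9. ARHGEF1, whose transcript is close to the typical length, moved little, to -0.63 and -0.93. In siMAPK14 the decreases of ARHGAP5, ARHGAP12, ARHGAP24, ARHGAP31, ARHGAP32, ARHGAP33, ARHGAP42, ARHGEF2, ARHGEF11, ARHGEF12, ARHGEF18 and ARHGEF40 no longer passed, and ARHGAP42 stood at 0.0081, ARHGAP12 at 0.028, ARHGAP32 at 0.10 and ARHGAP5 at 0.082, above 0. In siMAPK8_9 ARHGEF2 was at 1.62 (adjusted p = 6.71e-04) and ARHGAP24 at 1.08 (adjusted p = 0.00442), both further up than before. ARHGAP5 was there at 0.47 (adjusted p = 0.0235), on the other side of 0 from its value without the removal, and ARHGAP12 rose at 0.47. Among others, ARHGAP25, ARHGAP21, ARHGAP39, ARHGEF10L, ARHGEF17 and ARHGEF37 lost their siMAPK8_9 calls. Without replicate 2 and with the trend removed, 12 members were higher and 23 lower in siMAPK8_9, beside 60.8% of all genes called, 29.4% higher and 31.4% lower.

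**Figure D3:**
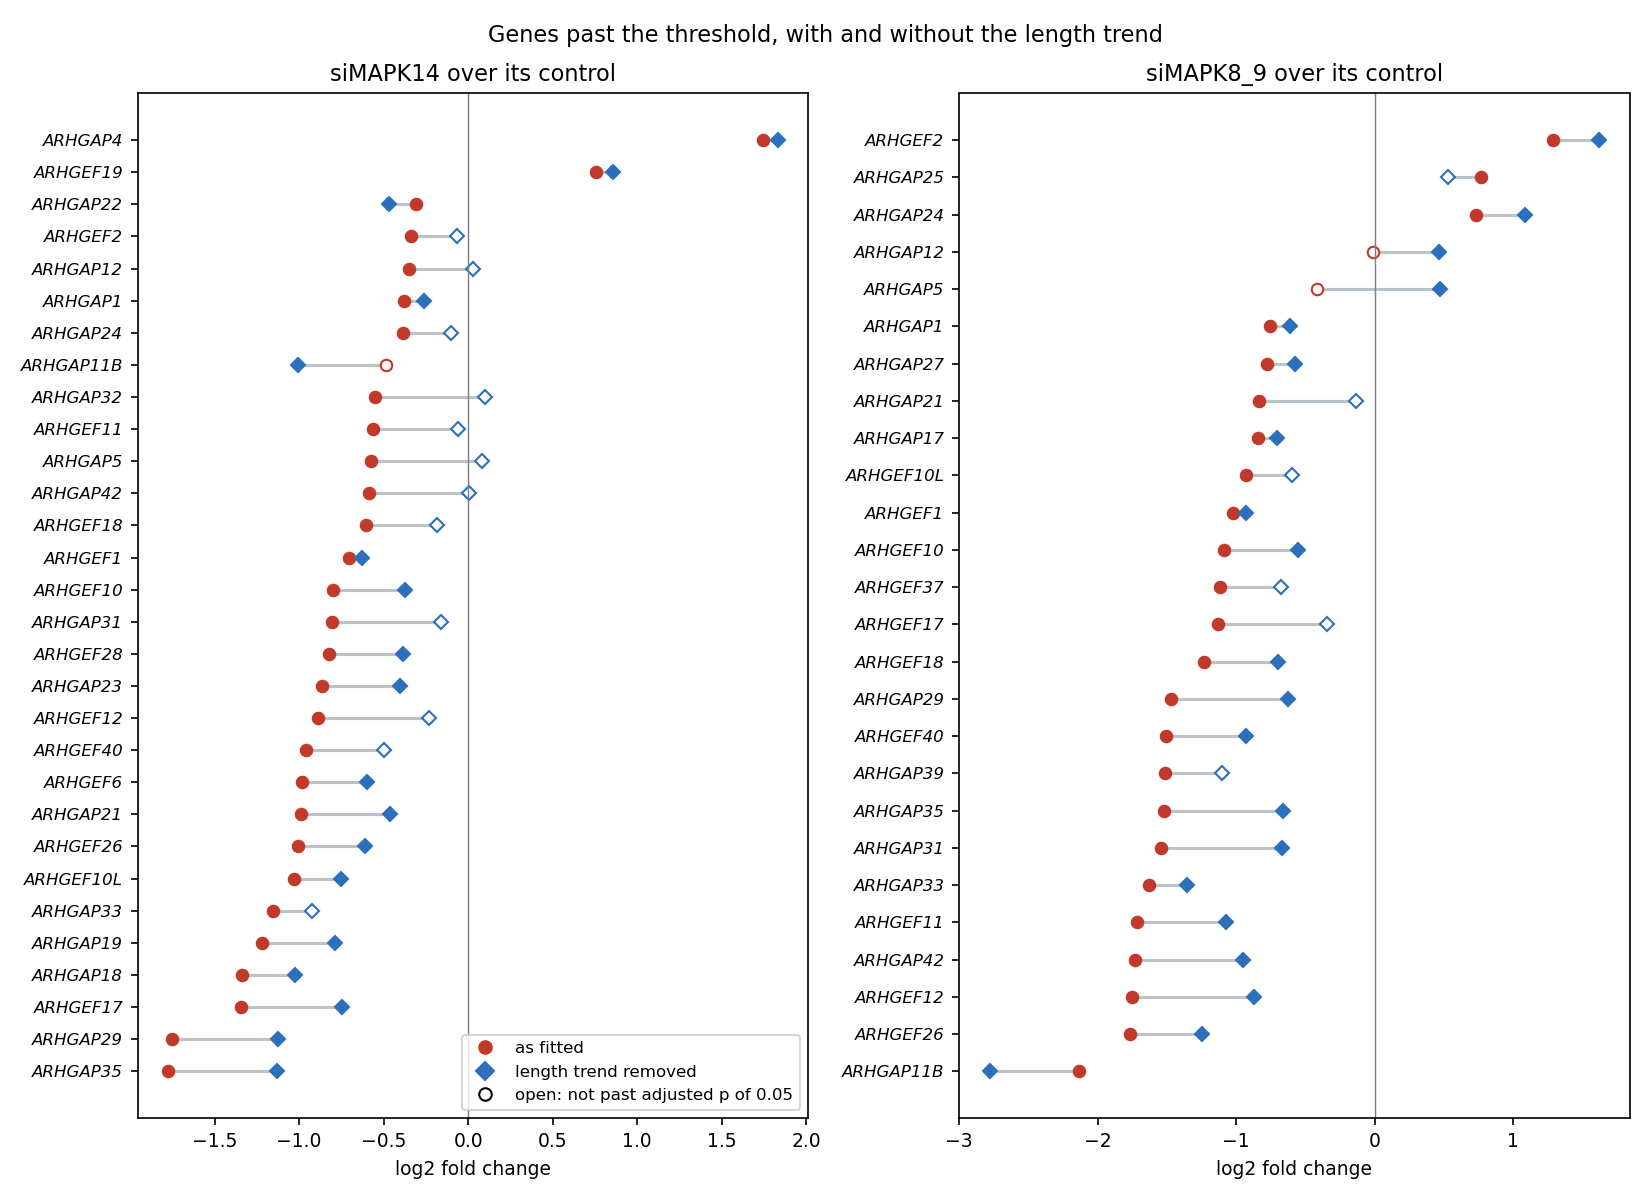
Log2 fold change of members called with or without removal of the length trend, for siMAPK14 and siMAPK8_9; red circles are the values as fitted, blue diamonds those with the trend removed, and open symbols did not pass an adjusted p of 0.05. Most decreases shrink, ARHGAP29 to -1.13 in siMAPK14 and -0.63 in siMAPK8_9, and ARHGEF2 in siMAPK8_9 moves up to 1.62.

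Of the 46 members tested in both knockdowns, 16 (34.8%) were lower in both, beside 18.1% of all 12869 genes tested in both. They were the RhoGEFs ARHGEF1, ARHGEF10, ARHGEF10L, ARHGEF11, ARHGEF12, ARHGEF17, ARHGEF18, ARHGEF26 and ARHGEF40 and the RhoGAPs ARHGAP1, ARHGAP21, ARHGAP29, ARHGAP31, ARHGAP33, ARHGAP35 and ARHGAP42. A further 9 were called lower in siMAPK14 and not called in siMAPK8_9, and 6 the other way round. ARHGEF2 and ARHGAP24 were lower in siMAPK14 and higher in siMAPK8_9, a pattern that 1.29% of all genes had. None rose in both, beside 19.8% of all genes, and 10 (21.7%) were called in neither, beside 26.1% of all genes. With the length trend removed, 7 members were lower in both, beside 9.01% of all genes: ARHGAP1, ARHGAP11B, ARHGAP29, ARHGAP35, ARHGEF1, ARHGEF10 and ARHGEF26. No member was then lower in siMAPK14 and higher in siMAPK8_9, beside 1.45% of all genes. ARHGEF2 stood at -0.068 and ARHGAP24 at -0.10 in siMAPK14 with the trend removed. The 2 experiments share no control library.

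**Figure D4:**
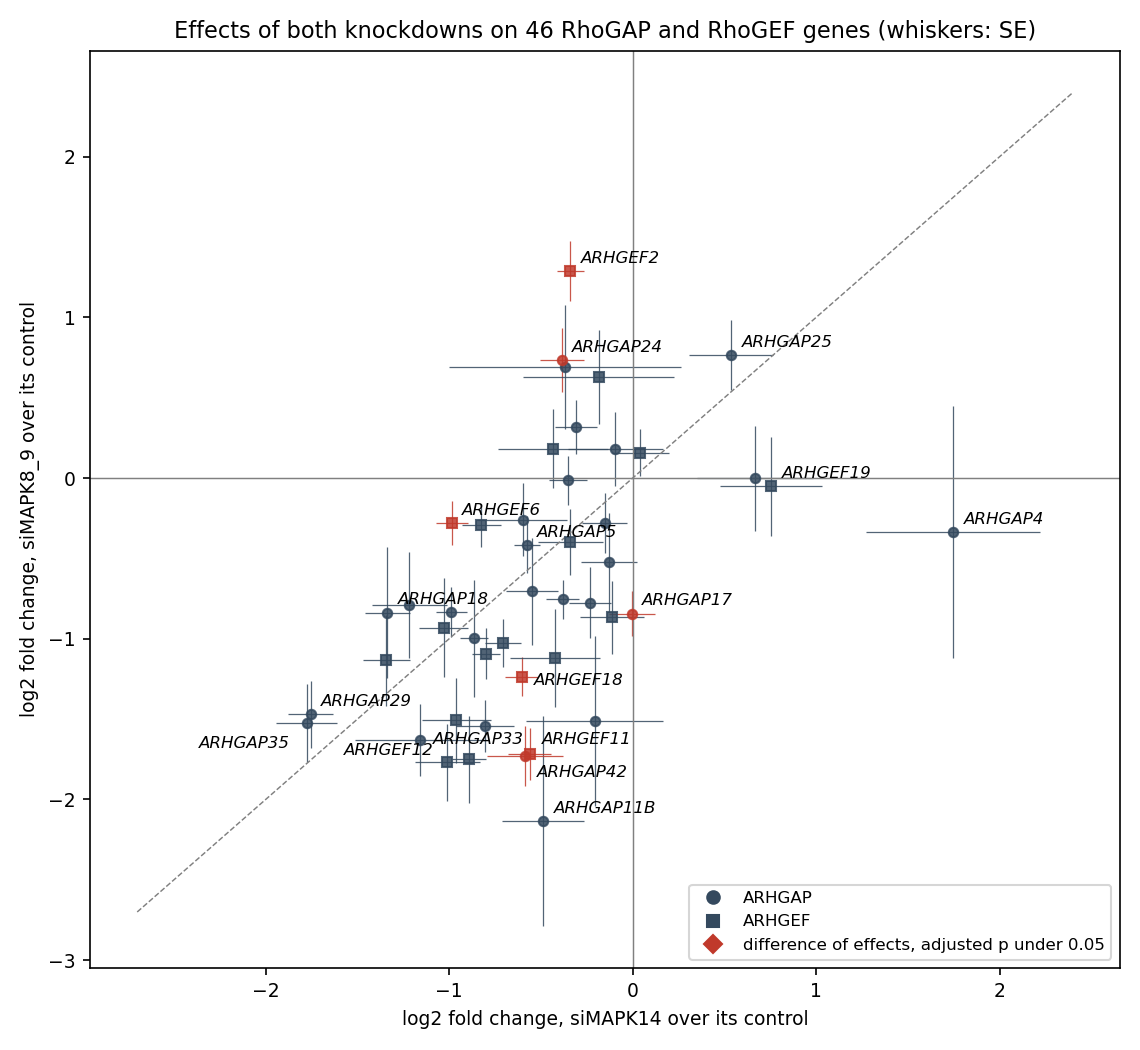
Log2 fold changes of the 46 members tested in both knockdowns, siMAPK14 on the x axis and siMAPK8_9 on the y axis, with SE whiskers; circles are ARHGAP and squares ARHGEF genes, red ones differ between the knockdowns at an adjusted p under 0.05, and the dashed line marks equal effects. Most points lie in the lower left, 16 of them called lower in both, while ARHGEF2 lies at -0.34 and 1.29.

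Whether the 2 knockdown effects differed was tested over all 12 libraries by taking the effect of siMAPK8_9 from that of siMAPK14. Of 51 members tested, 9 passed, beside 15.9% of 13648 genes, 5 with a positive difference (6.87% of all genes) and 4 with a negative one (9.02%). The strongest negative difference with ample counts was that of ARHGEF2, at -1.64 ± 0.21 (SE), adjusted p = 4.05e-04. Its knockdown levels were nearly the same, 163 ± 11.7 CPM in siMAPK14 and 165 ± 43.4 CPM in siMAPK8_9, while the controls of siMAPK14 stood 3.09-fold higher than those of siMAPK8_9, with 211 ± 12.3 and 68.4 ± 1.34 CPM (SD, n = 3 each). ARHGAP42 followed the same layout with a positive difference of 1.13 ± 0.28 (SE), adjusted p = 0.0166. It had 4.80 ± 1.17 CPM in siMAPK14 and 4.51 ± 0.803 CPM in siMAPK8_9, and 7.27 ± 0.463 and 15.5 ± 0.564 CPM in their controls. For both genes the knockdown means were close and the control means far apart. Since the batch labels differ between the experiments, batch and knockdown cannot be told apart here.

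For 5 further members the mean knockdown levels lay apart as well, a gap that was not tested on its own. ARHGEF11 had a difference of 1.14 ± 0.20 (SE), adjusted p = 0.00283, with 19.2 CPM in siMAPK14 and 12.6 CPM in siMAPK8_9, and 28.8 and 42.7 CPM in their controls. ARHGAP17 had 24.3 CPM in siMAPK14 and 16.5 CPM in siMAPK8_9, and 24.8 and 30.2 CPM in their controls, and a difference of 0.83 ± 0.19 (SE), adjusted p = 0.0122. For ARHGEF18 the difference was 0.62 ± 0.15 (SE), adjusted p = 0.0157, with 26.6 CPM in siMAPK14 and 18.2 CPM in siMAPK8_9. The control levels of ARHGEF18 were close, at 41.3 CPM beside siMAPK14 and 43.7 CPM beside siMAPK8_9. ARHGAP24 had 19.0 CPM in siMAPK14 and 26.8 CPM in siMAPK8_9, and 25.2 and 16.4 CPM in their controls, and a difference of -1.13 ± 0.24 (SE), adjusted p = 0.00735. ARHGEF6 had 21.1 CPM in siMAPK14 and 29.5 CPM in siMAPK8_9, and 42.4 and 36.5 CPM in their controls, and a difference of -0.72 ± 0.16 (SE), adjusted p = 0.0104. For these RAC1 regulators the siMAPK8_9 level was the higher of the 2 knockdown levels, and for ARHGEF11, ARHGAP17 and ARHGEF18 the lower. The differences of ARHGEF2, ARHGAP24, ARHGEF6, ARHGEF11 and ARHGAP17 passed in all 12 refits that left out 1 library. Over all genes, the 2169 calls of the difference became 1266 to 5205 in these refits. The differences of ARHGAP42 and ARHGEF18 ended without replicate 3 of the siMAPK14 controls (adjusted p up to 0.0525 and 0.0555). That of ARHGAP42 also ended without replicate 2 of the siMAPK8_9 controls. With the replicate number as a block (edgeR), ARHGEF6 (adjusted p = 0.0538), ARHGAP17 (0.0572), ARHGAP42 (0.0560) and ARHGEF18 (0.0683) no longer passed. Without siMAPK8_9 replicate 2, 23 of 52 members passed, 18 positive and 5 negative, beside 37.0% of all genes, 20.0% positive and 17.1% negative. With the length trend removed 11 of 50 passed, 5 positive and 6 negative, beside 18.3% of all genes, 7.88% positive and 10.5% negative. With both changes 18 of 51 passed, 13 positive and 5 negative, beside 34.4% of all genes, 18.6% positive and 15.8% negative. With total counts ARHGEF2 alone passed, with a negative difference, beside 7.53% of all genes, 1.35% positive and 6.18% negative.

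**Figure D5:**
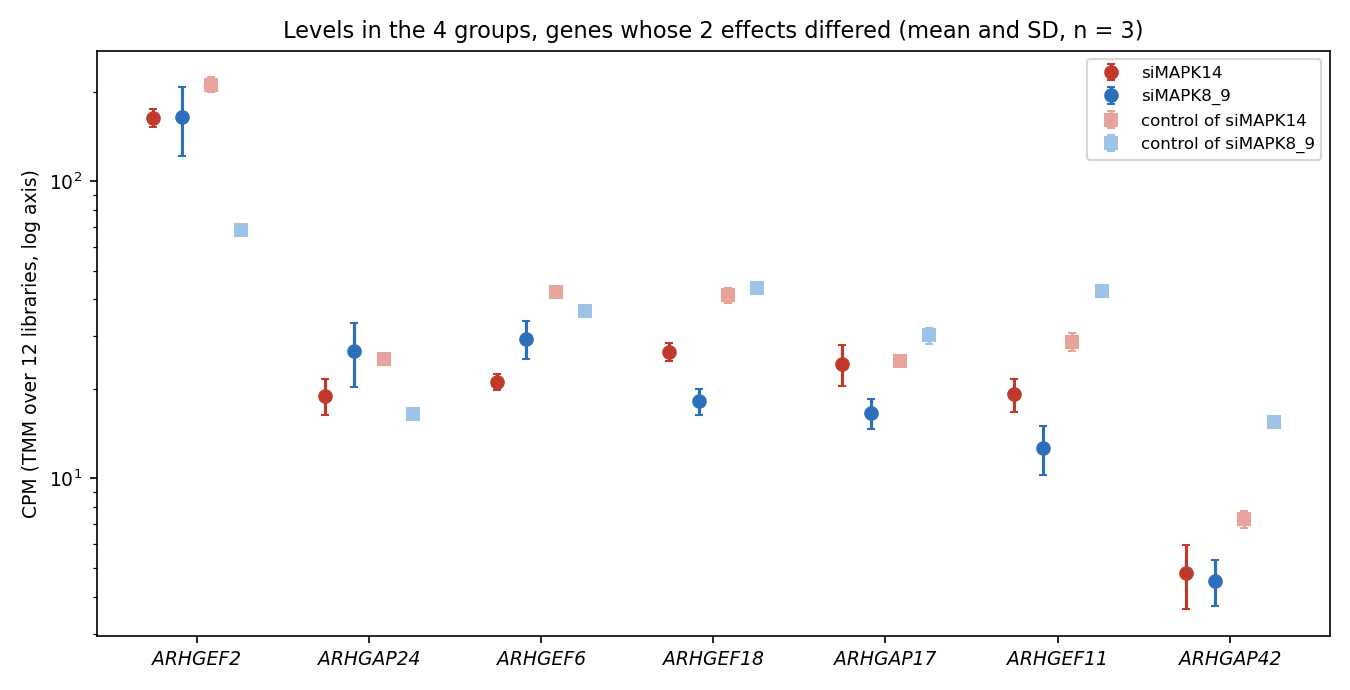
Levels of the 7 well-counted members whose 2 knockdown effects differed, in CPM scaled by TMM over all 12 libraries on a log axis, as mean and SD of 3 libraries; circles are the knockdowns and squares their controls. For ARHGEF2 the knockdowns coincide near 163 and 165 CPM while the controls lie at 211 and 68.4 CPM.

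The remaining 2 members with a difference were near the detection limit. ARHGEF5, a RHOA activator of the ephexin group, had 1.02, 5.65 and 0 CPM in siMAPK8_9, against 0.149, 0.0746 and 0.04997 CPM in the controls, and 0.491, 0.305 and 0.941 CPM in siMAPK14, against 1.27, 0.833 and 1.42 CPM in the controls. Its highest value was thus in replicate 2 of siMAPK8_9. ARHGAP28 had 0, 2.23 and 0.412 CPM in siMAPK14, against 0.147, 0.0735 and 0.0734 CPM in the controls, and no count in siMAPK8_9, against 0.323, 0.174 and 0.500 CPM in the controls. A single library, siMAPK14 replicate 2, carried most of its counts.

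Several members of low level were seen mainly in replicate 2 of siMAPK8_9, the library with KRT14 and KRT5. ARHGEF35 had 0, 3.53 and 0 CPM in siMAPK8_9 and no count in the controls. ARHGEF16 had 0.878, 3.44 and 0.487 CPM in siMAPK8_9, against 0.124, 0.199 and 0.175 CPM in the controls, and ARHGEF4 had 0, 3.30 and 0 CPM, against 0.149, 0.0995 and 0.150 CPM in the controls. ARHGAP8 had 1.18 CPM in replicate 2 and no count in the other libraries of its table. ARHGEF5 and ARHGEF35 share near-identical sequence, so the split of their reads is uncertain. The summed level of 19 epithelial markers reached 1917 CPM in that library, and the lowest siMAPK8_9 library had 139 CPM. It was at most 94.9 CPM in the controls of siMAPK8_9, 141 CPM in siMAPK14 and 121 CPM in the controls of siMAPK14. All 19 had a mean of 1 CPM or more in siMAPK8_9, which for many of them rested on replicate 2. KRT5 had 0, 208 and 0 CPM and CDH1 0, 25.6 and 0 CPM there, while KRT18 had 50.8, 113 and 60.1 CPM. The part of those cells or of their RNA in the values of replicate 2 was not tested. ARHGAP15, ARHGAP20, ARHGAP30, ARHGAP36, ARHGAP40, ARHGAP44, ARHGAP9, ARHGEF15, ARHGEF33 and ARHGEF38 stayed under 1 CPM in every library.

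The rest of the pathway was read from 4 lists. Of 20 tested genes of the RHOA, RAC1 and CDC42 family of GTPases and of RhoGDIs, the switches and their cytosolic carriers, 9 rose and 4 fell in siMAPK14 (median 0.26), and of 19, 9 rose and 4 fell in siMAPK8_9 (median 0.60). Of the list 65.0% was thus called in siMAPK14 and 68.4% in siMAPK8_9, beside 59.9% and 52.9% of all genes. With the length trend removed the counts were 6 higher and 4 lower in siMAPK14 and 5 higher and 4 lower in siMAPK8_9, and with total counts 1 higher and 11 lower in siMAPK14 and 4 higher and 5 lower in siMAPK8_9. With the trend removed 10 of 20 and 9 of 19 were thus called, beside 46.3% and 37.9% of all genes, and with total counts 12 of 20 and 9 of 19, beside 68.9% and 46.0% of all genes. RND3, an atypical GTPase that antagonises RHOA by binding ARHGAP5 and ROCK1, had 1545 ± 154 CPM in siMAPK8_9 and 153 ± 3.29 CPM in its controls (log2 fold change 3.33 ± 0.15 (SE), adjusted p = 9.69e-05, edgeR; SD, n = 3 each). In siMAPK14 it had 1579 ± 34.7 CPM, against 992 ± 67.2 CPM in the controls (log2 fold change 0.67). The difference between the RND3 effects was -2.67 ± 0.15 (SE), adjusted p = 4.30e-07, with knockdown levels close to each other and control levels 6.73-fold apart, the layout seen for ARHGEF2. ARHGDIB, a RhoGDI, rose in siMAPK8_9, with 35.7 ± 9.60 CPM, against 7.64 ± 0.145 CPM in the controls (log2 fold change 2.21). RHOBTB3, an atypical member, fell by 1.20 in siMAPK14 and 1.15 in siMAPK8_9 on the log2 scale. RHOC rose by 0.68 in siMAPK14, and with the trend removed stood at -0.049, on the other side of 0. In siMAPK8_9 RHOC rose by 1.45 (adjusted p = 0.00391), and with the trend removed it was still higher, at 0.39 (adjusted p = 0.0492).

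RhoGEF and DOCK genes under other symbols were counted in the same way: 2 rose and 27 fell of 41 in siMAPK14 (median -0.81), and 1 rose and 17 fell of 40 in siMAPK8_9 (median -0.89). The share called was 70.7% in siMAPK14, beside 59.9% of all genes, and 45.0% in siMAPK8_9, below the 52.9% of all genes. With the length trend removed 2 were higher and 15 lower of 38 in siMAPK14 (44.7% called, beside 46.3% of all genes), and 2 higher and 8 lower of 38 in siMAPK8_9 (26.3%, beside 37.9%). TRIO, an activator of RAC1 and RHOG, had 82.6 ± 8.37 CPM in siMAPK14, against 193 ± 1.57 CPM in the controls (log2 fold change -1.22). In siMAPK8_9 TRIO fell as well (log2 fold change -1.89). DOCK1, a RAC1 activator, fell by 1.26 in siMAPK14 and 1.61 in siMAPK8_9. NET1, a RHOA activator, rose in siMAPK8_9, with 79.7 ± 15.2 CPM, against 27.8 ± 0.521 CPM in the controls (log2 fold change 1.52). In siMAPK14 NET1 rose as well, with 74.1 ± 15.7 CPM, against 31.7 ± 1.83 CPM in the controls (log2 fold change 1.22). RhoGAPs under other symbols gave 0 higher and 17 lower of 25 in siMAPK14 (median -0.57) and 0 higher and 14 lower of 24 in siMAPK8_9 (median -0.69). Those are 68.0% and 58.3% called, beside 59.9% and 52.9% of all genes, of which 30.5% and 26.1% were lower. With the trend removed they gave 1 higher and 12 lower of 24 in siMAPK14 (54.2% called, beside 46.3% of all genes), and 3 higher and 7 lower of 23 in siMAPK8_9 (43.5%, beside 37.9%). MYO9B, a myosin with a RhoGAP domain, had 23.9 ± 6.12 CPM in siMAPK8_9, against 106 ± 3.64 CPM in the controls (log2 fold change -2.13), and fell by 1.27 in siMAPK14.

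Of 50 tested effectors of RHOA, RAC1 and CDC42, 4 rose and 33 fell in siMAPK14 (median -0.51), and 6 rose and 25 fell in siMAPK8_9 (median -0.40). The share called was 74.0% in siMAPK14 and 62.0% in siMAPK8_9, beside 59.9% and 52.9% of all genes. With the trend removed 5 were higher and 20 lower in siMAPK14 (25 of 50 called, beside 46.3% of all genes), and 8 higher and 12 lower in siMAPK8_9 (20 of 50 called, close to the 37.9% of all genes). ROCK2, the kinase through which RHOA drives contractility, had 41.7 ± 5.30 CPM in siMAPK8_9, against 117 ± 2.48 CPM in the controls (log2 fold change -1.49). In siMAPK14 it had 28.0 ± 3.05 CPM, against 68.5 ± 0.241 CPM in the controls (log2 fold change -1.29). ANLN, a scaffold of the cytokinetic ring that binds RHOA, fell by 1.54 in siMAPK14 and 1.79 in siMAPK8_9, and by 1.19 and 1.34 with the trend removed.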

How the data were processed

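RNA of 12 MIO-M1 libraries was captured by poly(A) and primed at random, per the labels; library strand is not stated. Reads were processed to GRCh38.p14 with tools that include Bowtie2 2.3.4.3, RSEM 1.3.1 and DESeq2 1.4.5, per the submitters' processing notes, with roles not given in the sources used here; the labels state a minimum RNA integrity for all samples. The authors deposited expected counts per gene, not normalized. Their deposited FPKM values (fragments scaled to length and depth) gave the effective length, taken as count over FPKM, and nothing else. Single-cell data were not analysed here, and 24 other columns with values per library were set aside.

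Counts were rounded and tested in R 4.3.3 with edgeR 4.0.16: filterByExpr (minimum count 10, minimum total 15), TMM, robust quasi-likelihood, each experiment alone, and all 12 libraries in 1 fit for the difference of effects. Adjusted p-values follow Benjamini-Hochberg over the whole table, and the threshold was 0.05. The SE of a log2 fold change was back-calculated, as its absolute value over the square root of the F statistic of the test. The pipeline was tested on simulated data. The length trend was removed as a lowess offset (span 0.3) per library. Alternatives were DESeq2 1.42.0, scaling by RLE or by total counts, all genes unfiltered, only genes averaging 1 CPM or more, removal of mitochondrial genes, the replicate number as a block, and leaving out each library. Removing the trend together with siMAPK8_9 replicate 2 was added after seeing the data. Members, lists and tests were chosen with earlier results of these data known.

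Named members were the 8 highest and 8 lowest called log2 fold changes per knockdown among members averaging 5 CPM or more whose groups do not overlap, the 4 highest and 4 lowest differences, the 6 highest control levels per kilobase and a fixed set of 17; 25 genes resulted, and others named in the text were chosen after their values were seen. Of the members, 1 enters the counts but is not reported here by itself. Of each list up to 4 called genes with the smallest adjusted p were eligible; ROCK2 in siMAPK14 lies outside that rule and was named after its values were seen. A single count is worth between 0.0317 CPM (deepest library) and 0.108 CPM (shallowest).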

Additional observations from a re-analysis of the deposited data

Results flagged for a closer look

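For 9 members the effects of the 2 knockdowns differed by the test of the difference itself (siMAPK14 effect minus siMAPK8_9 effect, log2, edgeR). It was positive for ARHGEF11 (1.14), ARHGAP42 (1.13), ARHGAP17 (0.83), ARHGEF18 (0.62) and ARHGAP28 (9.14), and negative for ARHGEF2 (-1.64), ARHGAP24 (-1.13), ARHGEF6 (-0.72) and ARHGEF5 (-5.64). The values of ARHGAP28 and ARHGEF5 rest on few counts, and ARHGAP28 had none in siMAPK8_9, so its size is no estimate of a fold. The difference of ARHGEF5 ended without replicate 2 or 3 of the siMAPK8_9 controls, and that of ARHGAP28 in most refits that left out 1 library.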

How the results depend on the processing

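The counts of called members, 29 in siMAPK14 and 25 in siMAPK8_9, stayed within 1.5 times under DESeq2, RLE or total-count scaling, no filtering, a floor of 1 CPM on the mean, removal of mitochondrial genes and the replicate block; with the length trend removed siMAPK14 gave 18. The 9 calls of the difference became 16 with DESeq2, 3 with the replicate block, 1 with total counts and 18 without siMAPK8_9 replicate 2 and with the length trend removed; the cause was not tested. Over all genes the 2169 calls of the difference became 3167, 1179, 1028 and 4695 under the same settings. Leaving out 1 library at a time gave 22 to 32 calls in siMAPK14, 17 to 35 in siMAPK8_9 and 6 to 23 for the difference, while all genes gave 6410 to 8612, 4509 to 9554 and 1266 to 5205. Same-numbered libraries hardly deviated together (every correlation under 0.1). Correlations this small cannot tell whether the numbers pair the libraries. The replicate block gave 27, 26 and 3 calls. In siMAPK14 each library correlated best with its own number, though at 0.030 at most, and in siMAPK8_9 this was not so. Of the values of the named members under the alternatives, 1121 kept direction and side of the threshold, 52 no longer passed, 41 newly passed and 36 changed sign.

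Log2 values that changed sign were as follows. With the length trend removed they were ARHGAP11A 0.29, ARHGAP17 0.11, ARHGAP42 0.0081, ARHGAP5 0.082, ARHGEF7 0.025 in siMAPK14, ARHGAP11A 0.055, ARHGAP5 0.47, ARHGEF28 0.28, ARHGEF6 0.21, ARHGEF7 0.053 in siMAPK8_9 and ARHGEF7 -0.057 for the difference. Without siMAPK8_9 replicate 2 and with the length trend removed they were ARHGAP11A 0.43, ARHGAP22 -0.064, ARHGAP5 0.35, ARHGEF28 0.46, ARHGEF6 0.19 in siMAPK8_9 and ARHGAP11A -0.088, ARHGAP18 0.11, ARHGEF10L 0.15 for the difference. With total counts they were ARHGAP22 -0.31 in siMAPK8_9 and ARHGEF7 -0.10 for the difference. ARHGAP17 in siMAPK14 was 0.012 with RLE factors and 0.013 with a floor of 1 CPM on the mean. When 1 library at a time was left out, the ranges that crossed 0 ran from -0.37 to 0.013 for ARHGAP11A, from -0.091 to 0.11 for ARHGAP17 in siMAPK14, and from -0.80 to 0.29 for ARHGAP18, from -0.48 to 0.039 for ARHGAP29, from -0.10 to 0.79 for ARHGAP33, from -0.55 to 0.15 for ARHGAP35, from -0.28 to 0.11 for ARHGAP5, from -0.40 to 0.32 for ARHGEF10L, from -0.48 to 0.22 for ARHGEF17, from -0.19 to 0.36 for ARHGEF7 for the difference. Of these, the values past the threshold were all in siMAPK8_9: ARHGAP5 with the length trend removed, and ARHGAP11A, ARHGAP5 and ARHGEF28 with the trend removed and without replicate 2. Depth limits the members under about 1 CPM, where a library holds few counts.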
